A study of Mus musculus with 6 samples.

Results

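The type I interferon response genes described here are 31 named mouse genes: interferon-induced antiviral effectors, the transcription factors that drive them, and sensors of foreign nucleic acid. They were chosen by name, as the rows of the deposited count table whose Ensembl identifier, without its version, carries one of the listed symbols in GENCODE release M21. All 31 were found among the 49585 genes of the table, and 25 of them passed the filter on low counts and were tested. Poly(A) RNA had been sequenced from MA9 leukaemia of mouse bone marrow. MA9 commonly abbreviates MLL-AF9, an oncogenic fusion of a chromatin regulator. The leukaemias were either Gata2 KO (genotype Gata2 -/-, also named Cre in the sample descriptions) or Gata2 f/f, the usual notation for floxed alleles before deletion, and each group had 3 libraries numbered 1 to 3. An effect of Cre itself cannot be told apart from that of the deletion. All 6 cultures had been grown with IL-3, IL-6 and stem cell factor and kept for 18 h in 5 uM Nutlin, which blocks the binding of MDM2 to p53. The sources used here do not give the promoter driving Cre, the mouse strain or whether the libraries of a group came from separate leukaemias, so each p-value reflects the spread of these libraries, which may be technical.

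Type I interferons bind the receptor formed by Ifnar1 and Ifnar2, whose Janus kinases Jak1 and Tyk2 phosphorylate STAT proteins, Stat2 among them. Stat2 and Irf9 are parts of the complex ISGF3, which binds the interferon-stimulated response element, a DNA motif with a repeated GAAA core, in the promoters of interferon-stimulated genes. The products block viral entry, translation and replication, and several of them, among them Irf7, Stat2 and the sensors Ddx58 and Ifih1, feed back on the pathway. In blood-forming tissue the pathway is active at a low level in healthy stem and myeloid cells, and it is known to respond to self nucleic acid as well as to infection.

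Promoter sequences are shown first because many of these genes are known to share the core of the interferon-stimulated response element, searched here as GAAA, any 2 bases, and GAAA again. RefSeq promoter windows of 300 bases, which lie mostly before the start of transcription and end inside the transcript, were matched by symbol for 23 of the 31 members. The motif was searched on both strands. It occurred in 12 of these 23 genes (52.2%), against 1079 of 27025 genes with a window (3.99%). The motif TTCNNNGAA, the core of the site bound by STAT dimers, reads the same on both strands and occurred in 6 of the 23 (26.1%), against 9.55% of all genes with a window. A match is a description of these letters and not a bound site, and a window without one says nothing of the factor. The windows below are those of the 6 members with a match to this core and the smallest p in the genotype test. They are written 5′ to 3′ on the strand of the gene with the build GRCm38.p6, and capitals mark the matches, which read TTTC, any 2 bases, TTTC where the motif lies on the other strand.
Isg15 (chr4:156200769-156201068, minus strand): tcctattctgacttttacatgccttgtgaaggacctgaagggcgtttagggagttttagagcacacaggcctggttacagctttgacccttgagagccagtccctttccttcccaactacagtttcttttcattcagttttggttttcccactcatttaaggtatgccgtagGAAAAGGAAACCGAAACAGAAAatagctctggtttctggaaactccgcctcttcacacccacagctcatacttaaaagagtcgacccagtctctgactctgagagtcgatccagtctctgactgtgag
Oas1a (chr5:120907476-120907775, minus strand): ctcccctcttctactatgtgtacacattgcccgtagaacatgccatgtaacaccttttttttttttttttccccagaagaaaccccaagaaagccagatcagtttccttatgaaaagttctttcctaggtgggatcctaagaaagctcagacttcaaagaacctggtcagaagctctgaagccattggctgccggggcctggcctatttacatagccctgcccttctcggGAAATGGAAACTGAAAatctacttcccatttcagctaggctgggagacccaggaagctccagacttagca
Bst2 (chr8:71537423-71537722, minus strand): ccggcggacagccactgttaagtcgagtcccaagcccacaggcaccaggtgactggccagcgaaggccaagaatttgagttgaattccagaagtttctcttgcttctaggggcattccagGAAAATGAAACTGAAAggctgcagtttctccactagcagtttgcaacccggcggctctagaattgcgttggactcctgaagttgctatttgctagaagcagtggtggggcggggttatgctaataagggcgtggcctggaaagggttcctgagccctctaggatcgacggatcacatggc
Ifih1 (chr2:62646206-62646505, minus strand): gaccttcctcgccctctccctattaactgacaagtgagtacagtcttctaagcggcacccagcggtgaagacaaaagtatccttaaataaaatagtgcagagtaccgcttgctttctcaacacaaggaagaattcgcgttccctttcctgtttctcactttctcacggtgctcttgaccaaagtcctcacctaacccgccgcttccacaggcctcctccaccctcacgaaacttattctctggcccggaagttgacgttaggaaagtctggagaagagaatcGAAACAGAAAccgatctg
Ddx58 (chr4:40239776-40240075, minus strand): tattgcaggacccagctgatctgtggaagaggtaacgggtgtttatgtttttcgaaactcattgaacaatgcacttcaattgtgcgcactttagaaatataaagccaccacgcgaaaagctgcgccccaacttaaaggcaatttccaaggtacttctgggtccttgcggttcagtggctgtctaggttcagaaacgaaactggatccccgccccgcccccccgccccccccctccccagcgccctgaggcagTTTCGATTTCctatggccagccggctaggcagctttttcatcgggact
Stat2 (chr10:128270248-128270547, plus strand): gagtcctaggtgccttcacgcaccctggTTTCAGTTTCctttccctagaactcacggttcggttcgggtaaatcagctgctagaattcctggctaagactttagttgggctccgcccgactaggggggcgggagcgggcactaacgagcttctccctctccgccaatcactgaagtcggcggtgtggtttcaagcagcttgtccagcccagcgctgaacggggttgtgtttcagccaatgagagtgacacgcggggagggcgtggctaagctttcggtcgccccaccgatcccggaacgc
Isg15 had 3 matches that overlap in a run from 78 to 57 bases before the start site, and Oas1a and Bst2 had a pair of overlapping matches each. In Bst2 the first match shares 3 bases with a TTCNNNGAA match. The matches of Ifih1 and Ddx58 lay behind the start site, at 32 to 41 and at 2 to 11 bases into the transcript.

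**Figure D1:**
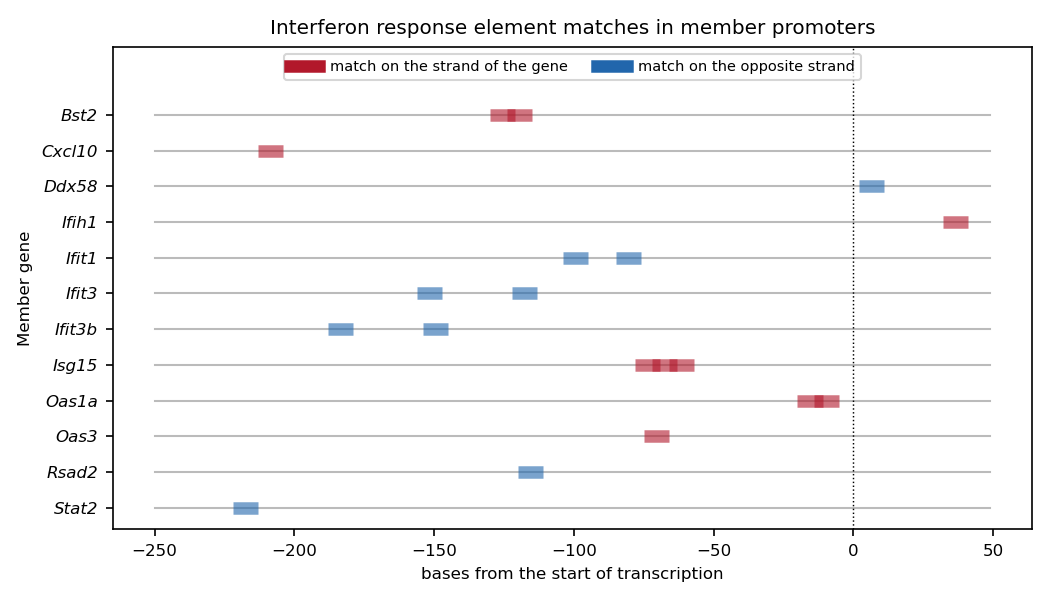
Positions of matches to the response element core in the 12 member promoters that hold one. The x axis gives bases from the start of transcription, each grey line is a window of 300 bases, and bars mark matches on the strand of the gene (red) or the opposite strand (blue). Matches lie before the start site in 10 of the 12 genes, and after it in Ddx58 and Ifih1.

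Total counts ran from 17138687 to 26440960 per library, so 1 count was worth 0.0398 to 0.0570 CPM (the count scaled to a common library total, with TMM factors). Gata2, the deleted gene, had 5.44 and 4.33 CPM in Gata2 KO 1 and 3 but 43.3 CPM in the library labelled Gata2 KO 2, against 33.6, 22.3 and 18.4 CPM in Gata2 f/f libraries 1 to 3. The Gata2 level of that library thus goes against its genotype label, although a count per gene does not itself show the genotype. This bears on each direction given below unless the library is stated to be left out. The labels give both genotypes the numbers 1 to 3 without saying what a number stands for, and both libraries numbered 3 stood apart from the other 4. Genes that carry ribosomal RNA reads held 5.95% of the counts in the library labelled Gata2 KO 2 and 7.01% in Gata2 f/f 1, and 0.283% to 1.25% in the remaining libraries.

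Both libraries numbered 3 lay above the other 4 for 25 of the 31 genes. Among the 25 tested members they did so for 20, against 21.1% of all genes tested. Gata2 KO 3 was the highest of all libraries for 25 of the 31 genes. The share of all genes with that layout was not computed. The levels summed over the 31 genes were 280.2, 229.8 and 489 CPM in libraries 1 to 3 labelled Gata2 KO, against 187, 189 and 368 CPM in Gata2 f/f libraries 1 to 3. At every number the KO library had the larger sum, while Gata2 f/f 3 lay above the libraries labelled KO 1 and 2. No member passed the genotype test. edgeR's quasi-likelihood test with Benjamini-Hochberg adjustment over all genes called 0 of the 25 tested members and 0 of 13744 genes (0.0%). At an unadjusted p under 0.05 it found 0 members and 171 genes (1.24%), 100 of them higher in Gata2 KO (0.728%), and DESeq2 without the block called 0 members and 7 genes (0.0509%). Of the 25 tested members 23 had a positive log2 fold change of Gata2 KO over Gata2 f/f, against 52.5% of all genes tested, with a median of 0.43, against 0.02 over all genes tested.

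That median changed as single libraries were left out. Without Gata2 KO 3 it was -0.13, with 7 of 25 members positive. Leaving out the library labelled Gata2 KO 2 gave 0.66, and leaving out Gata2 f/f 1, 2 or 3 gave 0.21, 0.11 or 0.92. Each of these fits leaves the numbers unequal between the genotypes. Without both libraries numbered 3 the median was 0.39, with 20 of 25 members positive. With the replicate number as a block, edgeR gave a median of 0.38, with 23 of 25 members positive. The groups overlapped for all 25: in 0 members did the 3 KO libraries all lie above or all below the 3 f/f libraries, as they did for 2.64% and 2.78% of all genes tested.

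**Figure D2:**
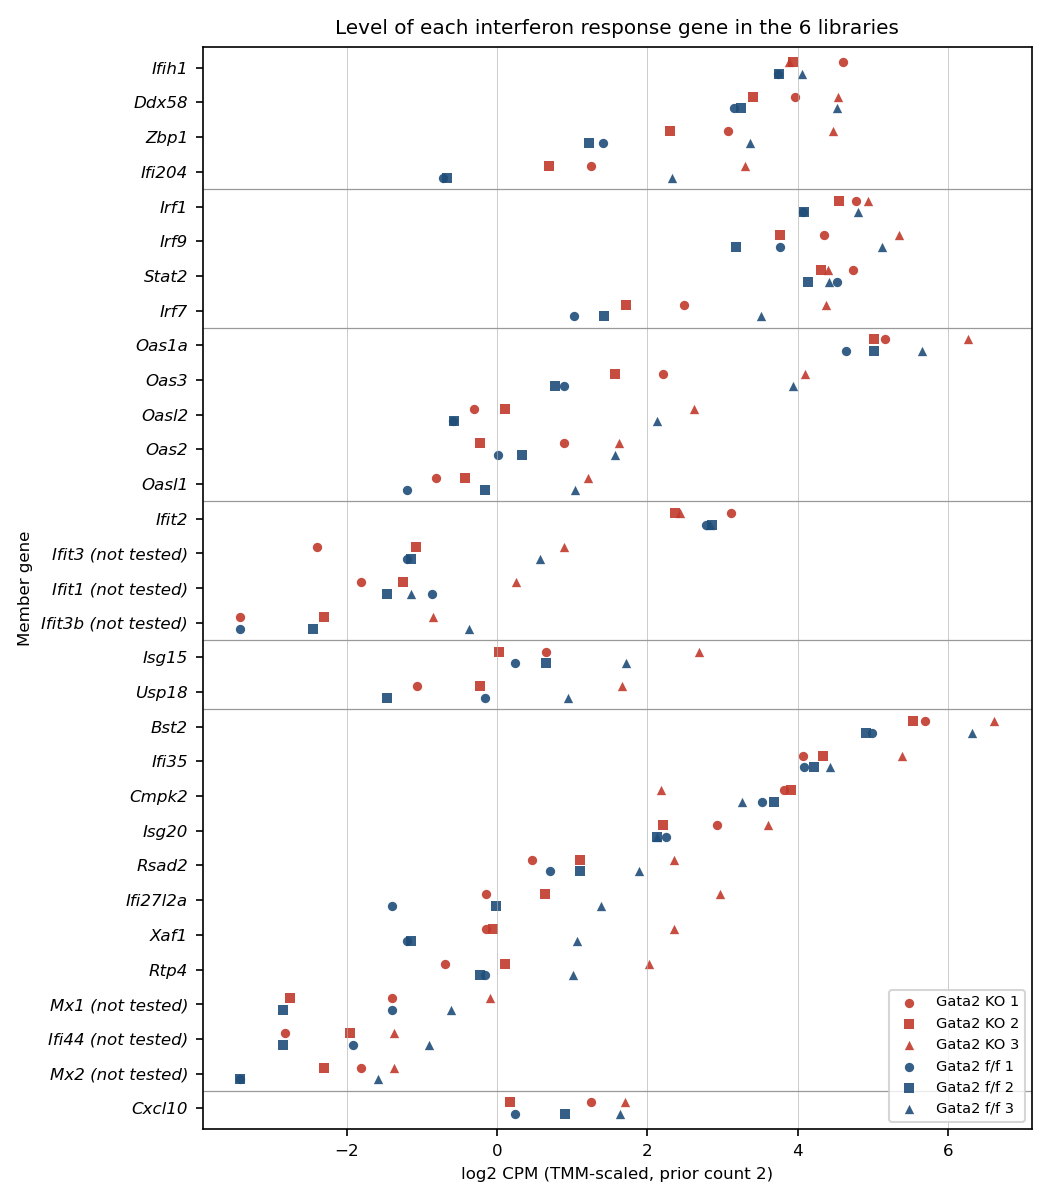
Level of each of the 31 members in every library, as log2 CPM with a prior count of 2, with red for Gata2 KO (upper row of each gene), blue for Gata2 f/f (lower row), and circles, squares and triangles for numbers 1, 2 and 3. The triangles lie to the right of the other symbols for most genes, and the 6 genes marked as not tested have at most 42 counts in a library.

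Compared per kilobase of exon, the levels of the members spanned a wide range. Bst2 was the highest, with means of 72.4 CPM per kb in Gata2 KO and 52.4 CPM per kb in Gata2 f/f, followed by Oas1a with 25.6 and 19.0 CPM per kb and Ifi35 with 15.2 and 11.0 CPM per kb. Over all 6 libraries Ifi44 was the lowest, with 0.0274 CPM per kb in Gata2 KO and 0.0356 CPM per kb in Gata2 f/f, where Mx2 was lower still at 0.0220 CPM per kb. The order of Bst2, Oas1a and Ifi35 was the same in both genotypes, but the libraries of each gene spread widely: Oas1a reached 76.7 CPM in Gata2 KO 3 and 24.8 CPM in Gata2 f/f 1.

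The sensors include the only member called by any of the genotype tests on all 6 libraries. Zbp1 (ENSMUSG00000027514.14, GRCm38 chromosome 2, 173206612 to 173218923, minus strand, protein-coding) encodes a sensor of Z-form nucleic acid that can trigger necroptosis. It had 8.31, 4.83 and 22.1 CPM in libraries 1 to 3 labelled Gata2 KO, against 2.57, 2.23 and 10.2 CPM in Gata2 f/f libraries 1 to 3. Each KO library lay above the f/f library of its own number, and KO 1 and 2 lay between the f/f libraries numbered 1 and 2 and Gata2 f/f 3. The means were 11.8 ± 9.16 CPM in Gata2 KO and 5.00 ± 4.51 CPM in Gata2 f/f (SD, n = 3 each). The log2 fold change was 1.23 with a standard error of 0.77 (edgeR, adjusted p = 1.00). This error, given after ± for all fold changes, was derived from the fold change and the F statistic of its test. With the number as a block, DESeq2 called Zbp1 (log2 fold change 1.28, adjusted p = 0.0126) among 222 genes (1.62%), of which 180 were higher in Gata2 KO (1.31%), while edgeR did not (1.30 ± 0.25, adjusted p = 0.365). The DESeq2 call was lost when the library labelled Gata2 KO 2 was left out (1.38, adjusted p = 0.338), and also when both libraries numbered 3 were (1.38, adjusted p = 0.224). Leaving out single libraries without the block, the log2 fold change ran from 0.37 without Gata2 KO 3 to 2.26 without Gata2 f/f 3, and over all edgeR fits the adjusted p ran from 0.233 to 1.00.

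Ifi204 (chromosome 1, 173747293 to 173766943, minus strand) encodes a DNA-binding protein of the PYHIN family. It had 2.29, 1.52 and 9.75 CPM in libraries 1 to 3 labelled Gata2 KO, against 0.513, 0.535 and 4.94 CPM in Gata2 f/f libraries 1 to 3. The layout was that of Zbp1, with the KO library higher in each number and both libraries numbered 3 on top. The raw counts in Gata2 f/f 1 and 2 were 9 and 12, and 11.5% of the 90-base windows of Ifi204 transcripts also occur in another gene, mostly Ifi211, so low counts can be shared. Its log2 fold change was 1.17 ± 1.07, -0.10 without Gata2 KO 3, and 1.81 without both libraries numbered 3. With the block it was 1.47 ± 0.36 (edgeR, unadjusted p = 0.00557, adjusted p = 0.398).

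Ifih1 and Ddx58 encode MDA5 and RIG-I, the helicases that sense viral double-stranded RNA in the cytoplasm. Ifih1 had 24.3, 15.3 and 14.7 CPM in libraries 1 to 3 labelled Gata2 KO, against 13.2, 13.4 and 16.6 CPM in Gata2 f/f libraries 1 to 3. Here Gata2 KO 1 stood above the other 5 libraries, and number 3 did not stand apart. The log2 fold change was 0.33 ± 0.29, and 0.04 without Gata2 KO 1. Ddx58 followed the numbers, with 15.6, 10.5 and 23.1 CPM in libraries 1 to 3 labelled Gata2 KO, against 8.84, 9.37 and 23.0 CPM in Gata2 f/f libraries 1 to 3.

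Among the transcription factors, Irf7 and Irf9 varied with the number and Stat2 hardly varied. Irf7 (chromosome 7, 141262706 to 141266481, minus strand), the regulator that amplifies interferon production, had 5.49, 3.20 and 20.6 CPM in libraries 1 to 3 labelled Gata2 KO, against 1.94, 2.59 and 11.3 CPM in Gata2 f/f libraries 1 to 3. The KO library was the higher one in each number, and both libraries numbered 3 were above the other 4. The log2 fold change was 0.89 ± 0.90 without the block, 0.89 ± 0.30 with it (edgeR, unadjusted p = 0.0227, adjusted p = 0.426) and -0.31 without Gata2 KO 3. Without both libraries numbered 3 it was 0.90. Irf9, the DNA-binding subunit of ISGF3, had 20.2, 13.5 and 40.7 CPM in libraries 1 to 3 labelled Gata2 KO, against 13.5, 9.01 and 34.6 CPM in Gata2 f/f libraries 1 to 3. Its layout was again that of the numbers, with a log2 fold change of 0.38 ± 0.59 that turned to -0.20 without Gata2 KO 3. Without both libraries numbered 3 it was 0.55.

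Stat2, which joins Irf9 in ISGF3, had 26.6, 19.7 and 21.1 CPM in libraries 1 to 3 labelled Gata2 KO, against 22.8, 17.5 and 21.3 CPM in Gata2 f/f libraries 1 to 3. The groups overlapped almost fully, with a log2 fold change of 0.13 ± 0.24, and -0.03 without Gata2 KO 1. Irf1, a factor induced by type I and type II interferon, had 27.4, 23.4 and 30.5 CPM in libraries 1 to 3 labelled Gata2 KO, against 16.7, 16.9 and 27.7 CPM in Gata2 f/f libraries 1 to 3. The 3 KO libraries lay close together, and Gata2 f/f 3 lay among them. The log2 fold change of Irf1 was 0.41 ± 0.28, and ran from 0.24 without Gata2 f/f 1 to 0.65 without Gata2 f/f 3.

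The Oas genes encode synthases of 2-5A, the second messenger that activates RNase L, and the related Oasl proteins. Oas1a had 35.8, 32.4 and 76.7 CPM in libraries 1 to 3 labelled Gata2 KO, against 24.8, 32.3 and 50.3 CPM in Gata2 f/f libraries 1 to 3. Number 2 thus gave nearly equal values in both genotypes, and Gata2 KO 3 was well above Gata2 f/f 3. The log2 fold change was 0.43 ± 0.42, -0.10 without Gata2 KO 3, and 0.22 without both libraries numbered 3. Of the 90-base windows of Oas1a transcripts 43.4% also occur in Oas1g, so reads may have been split between them, and the division of counts is uncertain. Oas3 was the member with the smallest p between numbers: it had 4.54, 2.88 and 17.1 CPM in libraries 1 to 3 labelled Gata2 KO, against 1.77, 1.61 and 15.2 CPM in Gata2 f/f libraries 1 to 3. The KO library was also the higher one in each number. The log2 fold change of Oas3 was 0.40 ± 1.03 without the block and 0.75 ± 0.31 with it (edgeR, unadjusted p = 0.0478, adjusted p = 0.460 with the block). Oas2, Oasl1 and Oasl2 lay at 0.342 to 6.05 CPM over the 6 libraries, with both libraries numbered 3 on top for each of them.

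Of the Ifit family, whose products bind viral RNA that lacks host cap marks, Ifit2 alone was tested. It had 8.60, 5.05 and 5.29 CPM in libraries 1 to 3 labelled Gata2 KO, against 6.79, 7.14 and 7.01 CPM in Gata2 f/f libraries 1 to 3. It was thus not raised in number 3 in either genotype. Ifit1, Ifit3 and Ifit3b were at 0 to 1.76 CPM, with at most 42 counts in a library. Ifit3 and Ifit3b lie near each other on chromosome 19, at 34583531 to 34588731 and at 34607970 to 34613401 on the plus strand, with Ifit1bl1 between them. Ifit3 and Ifit3b share 35.1% of the 90-base windows of Ifit3, so their counts cannot be fully told apart.

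Isg15, a ubiquitin-like protein that is conjugated to other proteins, had 1.48, 0.923 and 6.34 CPM in libraries 1 to 3 labelled Gata2 KO, against 1.08, 1.47 and 3.19 CPM in Gata2 f/f libraries 1 to 3. Usp18, the protease that removes Isg15 and restrains the receptor, had 0.382, 0.760 and 3.07 CPM in libraries 1 to 3 labelled Gata2 KO, against 0.798, 0.268 and 1.83 CPM in Gata2 f/f libraries 1 to 3. Both genes peaked in number 3 of both genotypes, and neither kept one order of the genotypes over the numbers 1 and 2.

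Of the other effectors that were tested, Bst2, Xaf1, Ifi27l2a and Isg20 had a larger value in the KO library at every number. Bst2 (chromosome 8, 71534255 to 71537456, minus strand) encodes tetherin, which holds budding virus at the cell surface. It had 51.6, 46.4 and 98.2 CPM in libraries 1 to 3 labelled Gata2 KO, against 31.8, 30.1 and 80.1 CPM in Gata2 f/f libraries 1 to 3. Number 3 lay farther from numbers 1 and 2 within each genotype than the genotypes lay apart at any number. The log2 fold change was 0.47 ± 0.47 without the block and 0.54 ± 0.17 with it (edgeR, unadjusted p = 0.0184, adjusted p = 0.417). Without the block it was 0.03 when Gata2 KO 3 was left out, 1.04 when Gata2 f/f 3 was, and 0.63 when both were.

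Xaf1, which encodes a pro-apoptotic partner of XIAP, had 0.812, 0.868 and 5.00 CPM in libraries 1 to 3 labelled Gata2 KO, against 0.342, 0.357 and 1.99 CPM in Gata2 f/f libraries 1 to 3. Ifi27l2a, which encodes a small interferon-induced membrane protein, had 0.812, 1.47 and 7.69 CPM in libraries 1 to 3 labelled Gata2 KO, against 0.285, 0.892 and 2.51 CPM in Gata2 f/f libraries 1 to 3. In both genes the KO library was higher at every number and both libraries numbered 3 were on top, at low counts: Gata2 f/f 1 had 6 counts of Xaf1 and 5 of Ifi27l2a. The log2 fold changes were 1.29 ± 0.98 for Xaf1 and 1.42 ± 1.02 for Ifi27l2a, and without Gata2 KO 3 they were -0.13 and -0.15. Without both libraries numbered 3 they were 1.21 and 0.87.

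Isg20, an exonuclease that degrades viral RNA, had the smallest p of the members without the block. It had 7.50, 4.51 and 12.1 CPM in libraries 1 to 3 labelled Gata2 KO, against 4.68, 4.28 and 4.26 CPM in Gata2 f/f libraries 1 to 3. The f/f libraries lay together at every number, Gata2 KO 1 and 3 lay above them, and the library labelled KO 2 lay inside their range. Isg20 thus had a log2 fold change of 0.87 ± 0.40 (unadjusted p of 0.0664 and adjusted p of 1.00 by edgeR), which was 0.42 without Gata2 KO 3. Without both libraries numbered 3 it was 0.39. Ifi35, the partner of Nmi, had 16.7, 20.1 and 41.8 CPM in libraries 1 to 3 labelled Gata2 KO, against 16.9, 18.6 and 21.5 CPM in Gata2 f/f libraries 1 to 3. Only Gata2 KO 3 stood out, and the log2 fold change of 0.46 ± 0.38 turned to -0.07 without it. Without both libraries numbered 3 the log2 fold change was 0.02. Of the Ifi35 exon bases 16.8% overlap the opposite-strand gene Gm11626, whose reads cannot be told apart unless strand was used in counting.

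Cmpk2, a mitochondrial nucleotide kinase, was the one tested member for which both libraries numbered 3 lay below the other 4. It had 14.0, 14.9 and 4.45 CPM in libraries 1 to 3 labelled Gata2 KO, against 11.5, 12.8 and 9.48 CPM in Gata2 f/f libraries 1 to 3. Rsad2, its neighbour on chromosome 12 and the gene of viperin, went the other way between the numbers, with 1.29, 2.06 and 5.04 CPM in libraries 1 to 3 labelled Gata2 KO, against 1.54, 2.05 and 3.62 CPM in Gata2 f/f libraries 1 to 3. Rtp4, a chaperone of receptor transport, lay at 0.525 to 3.95 CPM. The dynamin-like GTPase genes Mx1 and Mx2 and the gene Ifi44 had at most 20 counts in any library and were not tested. Cxcl10, a chemokine that draws activated T cells, lay at 1.03 to 3.15 CPM in Gata2 KO and 1.08 to 3.03 CPM in Gata2 f/f.

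**Figure D3:**
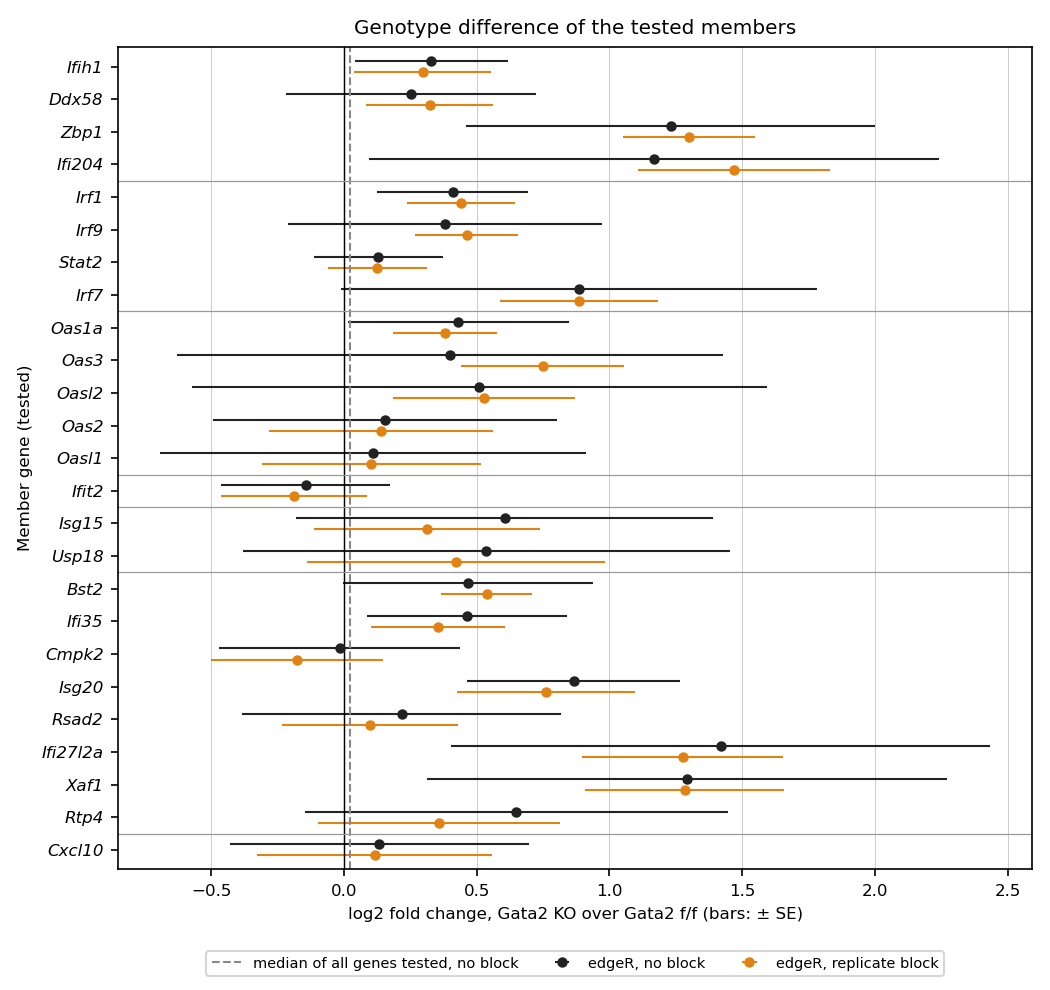
Genotype log2 fold change (Gata2 KO over Gata2 f/f) and its standard error for the 25 tested members, without the block (black) and with the replicate number as a block (orange). The dashed line is the median of all genes tested, 0.02. Most points lie to the right of 0, standard errors are shorter with the block, and none of the 25 passed edgeR's adjusted threshold in either fit.

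Equal numbers were compared next, because the deviations of all genes from their group means correlated between libraries of the same number. Gata2 f/f 1, however, correlated more with the library labelled Gata2 KO 2 (0.46) than with Gata2 KO 1 (0.29). Within number 1 the KO library was higher for 21 of the 25 tested members (52.6% of all genes), with a median difference in log2 CPM of 0.67. Within number 2 it was higher for 20 (54.1% of all genes; median 0.22), and within number 3 for 21 (49.7% of all genes; median 0.47). In 13 members the KO library was higher in all 3 numbers, against 20.7% of all genes tested, and in 0 members was it lower in all 3, against 17.7%. In number 2 the KO library is the one whose Gata2 level goes against its label. With the block, edgeR's adjusted test called 0 members and 0 genes (0.0%). At an unadjusted p under 0.05 the blocked fit found 7 members, all higher in Gata2 KO, against 1473 genes in either direction (10.7%) and 1019 higher in Gata2 KO (7.41%). They were Zbp1, Ifi204, Xaf1, Ifi27l2a, Bst2, Irf7 and Oas3.

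**Figure D4:**
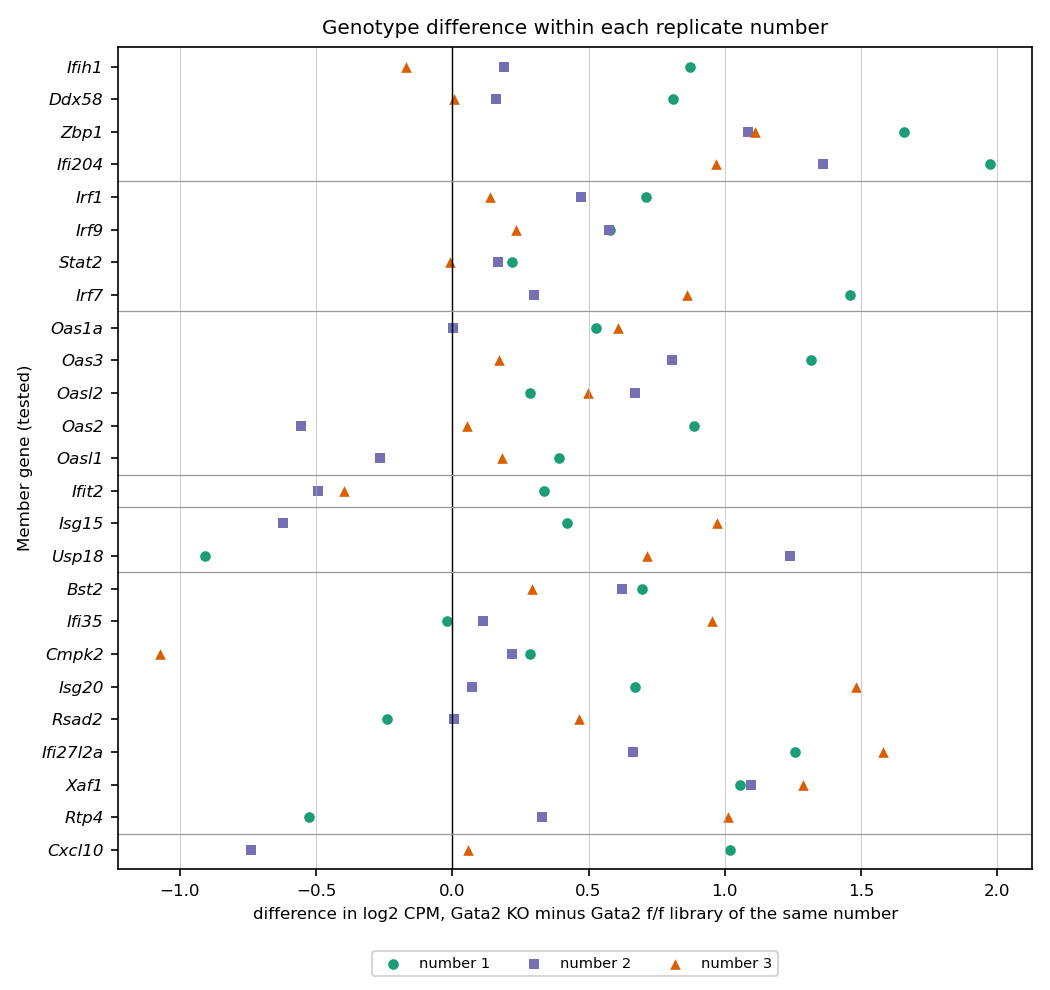
Difference in log2 CPM between the Gata2 KO and the Gata2 f/f library of the same number for the 25 tested members, with circles for number 1, squares for number 2 and triangles for number 3. All 3 symbols lie to the right of 0 for 13 members, among them Zbp1 at 1.66, 1.08 and 1.11 and Xaf1 at 1.06, 1.10 and 1.29 for numbers 1, 2 and 3.

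Differences between the numbers were larger for many members than those between the genotypes. Both libraries numbered 3 lay above the other 4 for 20 of the 25 tested members, against 21.1% of all genes tested, a layout singled out after its values were seen. The median difference between number 3 and the mean of numbers 1 and 2 was 1.30 in Gata2 KO and 1.33 in Gata2 f/f on the log2 scale, against 0.02 in Gata2 KO and -0.00423 in Gata2 f/f over all genes tested. In the fit with genotype and number, edgeR's test of the number terms called 9 of the 25 members, against 9.09% of all genes. In all 9 both libraries numbered 3 lay above the other 4, a combination met by 6.37% of all genes tested. They were Oas3 (adjusted p = 0.0141), Oasl2 (0.0152), Zbp1 (0.0175), Ifi204 (0.0177), Irf7 and Irf9 (0.0185 each), Ifi27l2a (0.0236), Xaf1 (0.0248) and Bst2 (0.0263). Without Gata2 KO 3 the test called 3 of 25 members, namely Irf9, Oas3 and Bst2, against 5.39% of all genes. DESeq2's likelihood ratio test of the number terms called 12 members, against 20.9% of all genes.

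The interferon genes themselves were close to silent. Of 15 ligand genes listed, 11 had no count in any library, and none was tested. Ifnb1, the first interferon made by most cells, had 0 counts in every KO library, against 0, 1 and 1 counts in Gata2 f/f libraries 1 to 3. Ifng had 0, 1 and 4 counts in libraries 1 to 3 labelled Gata2 KO, against 0, 0 and 6 counts in Gata2 f/f libraries 1 to 3. A count of 0 allows up to 3 counts, which is 0.119 to 0.171 CPM in these libraries. The receptor chains were well detected: Ifnar1 had 107, 83.7 and 95.6 CPM in libraries 1 to 3 labelled Gata2 KO, against 78.5, 63.1 and 107 CPM in Gata2 f/f libraries 1 to 3, a log2 fold change of 0.20 ± 0.26 that ran from 0.04 without Gata2 f/f 2 to 0.39 without Gata2 f/f 3. Ifnar2 had means of 89.9 ± 15.9 CPM in Gata2 KO and 72.0 ± 14.9 CPM in Gata2 f/f (SD, n = 3 each; log2 fold change 0.32 ± 0.25), and groups that overlapped.

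Of 98 further genes of the pathway, 76 were tested, and edgeR called 0 of them without the block. By list, positive log2 fold changes were seen for 8 of 9 receptor and Janus kinase genes, 6 of 8 other STAT and IRF genes, 11 of 15 sensor signalling genes, 7 of 9 negative regulators and 27 of 35 other interferon-stimulated effectors. The share over all genes tested was 52.5%. The list medians ran from 0.09 for sensor signalling to 0.29 for negative regulators. These signs are those of the fit without the block on all 6 libraries. Ticam1, the adaptor TRIF of Toll-like receptor 3, had 34.7, 24.8 and 37.6 CPM in libraries 1 to 3 labelled Gata2 KO, against 20.4, 17.3 and 22.8 CPM in Gata2 f/f libraries 1 to 3. Its groups did not overlap, as for 2.64% of all genes tested in that direction, and its log2 fold change was 0.68 ± 0.26. Aim2, a sensor of cytosolic DNA, had the reverse layout, with 20.5, 27.6 and 20.2 CPM in libraries 1 to 3 labelled Gata2 KO, against 30.1, 34.7 and 28.7 CPM in Gata2 f/f libraries 1 to 3, as for 2.78% of all genes tested, and a log2 fold change of -0.45 ± 0.24.

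Brakes on cytokine signalling had positive values as well. Ptpn6, the phosphatase SHP-1, had means of 316 ± 63.8 CPM in Gata2 KO and 207 ± 59.4 CPM in Gata2 f/f (log2 fold change 0.61 ± 0.29). Socs1, which inhibits Janus kinases, had means of 18.7 ± 13.0 CPM in Gata2 KO and 10.9 ± 6.94 CPM in Gata2 f/f (SD, n = 3 each; 0.79 ± 0.63). Its log2 fold change was 0.07 if Gata2 KO 3 is left out, 1.40 if Gata2 f/f 3 is, and 0.71 if both are. Both groups overlapped at each gene. Stat3 (0.31 ± 0.29), Irf4 (-0.999 ± 0.59, at most 39 counts in a library), Ifnlr1 (1.41 ± 0.71, at most 45 counts), Oas1g (1.97 ± 1.17) and Cxcl9 (0.92 ± 0.60) did not pass the test either. The value of Stat3 was 0.000441 without Gata2 KO 1, that of Irf4 was -0.56 without Gata2 f/f 3, and that of Cxcl9 ran from 0.57 (no Gata2 KO 3) to 1.69 (no Gata2 f/f 3). Oas1g shares reads with Oas1a, as above, and its log2 fold change was -0.39 without Gata2 KO 3 and 0.39 without both libraries numbered 3. DESeq2 with the block called 3 pathway genes higher in Gata2 KO, named after their values were seen: the cytokine signalling inhibitor Socs3 (log2 fold change 1.41), the Toll-like receptor chaperone Unc93b1 (0.91) and the transcription factor Irf5 (1.06), with adjusted p of 0.000744, 0.0263 and 0.0321. These were 3 of 76 tested, against 1.62% of all genes. Leaving out the library labelled Gata2 KO 2, it called 0 of 77 pathway genes (0.469% of all genes), and leaving out both libraries numbered 3, it called 7 of 71 (2.78% of all genes). Both libraries numbered 3 were also the highest for Socs3, Unc93b1 and Irf5, with 117, 463 and 58.1 CPM in Gata2 KO 3.

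Levels of monocyte and macrophage markers differed between the same numbers. All 10 monocyte and macrophage markers were higher in both libraries numbered 3 than in the other 4. Their summed level was 1042, 964 and 2356 CPM in libraries 1 to 3 labelled Gata2 KO, against 708, 857 and 2288 CPM in Gata2 f/f libraries 1 to 3. The 10 neutrophil markers summed to 1737, 589 and 3159 CPM in libraries 1 to 3 labelled Gata2 KO, against 266, 559 and 1837 CPM in Gata2 f/f libraries 1 to 3. Of these, 3 of 10 were higher in both libraries numbered 3 than in the other 4, and Mmp8 alone gave 992 CPM of the sum in Gata2 f/f 3. By the neutrophil sum, and equally by the monocyte and macrophage sum, the 6 libraries fell in the same order as by the summed level of the 31 interferon response genes. The 8 conventional dendritic cell markers summed to 14.4, 22.5 and 167 CPM in libraries 1 to 3 labelled Gata2 KO, against 19.2, 12.8 and 108 CPM in Gata2 f/f libraries 1 to 3, with 3 of the 8 higher in both libraries numbered 3. The 7 stem and progenitor markers had their lowest sums in number 3, 380.2 CPM in Gata2 KO 3 and 402 CPM in Gata2 f/f 3, against 521 to 553 CPM in the other 4. Hoxa9 and Hoxa10 made up most of each sum. Kit and Mecom were lower in both libraries numbered 3 than in the other 4, and Hoxa10 barely so (111.56 CPM in Gata2 KO 3, 111.60 CPM in the library labelled Gata2 KO 2). Cd34, Meis1, Hoxa9 and Gata2, the deleted gene, were not. The part of mature myeloid cells in the levels of the interferon response genes was not tested, and in bulk RNA more cells of a type cannot be told apart from more RNA per cell.

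The 6 markers of primary granules and granulocyte-monocyte progenitors summed to between 3719 and 8374 CPM over all libraries, as in cells of the labelled kind. Plasmacytoid dendritic cells, the strongest interferon producers of blood, left little trace: Siglech and Klk1 had no count in any library, and 6 of the 9 listed markers had at most 10 counts in every library. Bst2 is among the other 3 and is itself one of the 31 genes. Their sum was 187 to 197 CPM in Gata2 KO and 85.0 to 199 CPM in Gata2 f/f, most of it from Tcf4 and Bst2. B cell markers summed to 1.72 to 5.67 CPM in Gata2 KO and 4.62 to 6.50 CPM in Gata2 f/f, with Pax5 at 0 counts, and T and NK cell markers to 5.88 to 16.6 CPM in Gata2 KO and 9.88 to 22.4 CPM in Gata2 f/f, with Klrb1c and Ncr1 at 0 counts. Erythroid, megakaryocyte, and mast and basophil markers reached at most 11.9, 9.77 and 20.6 CPM in Gata2 KO and 4.46, 26.9 and 14.5 CPM in Gata2 f/f. Stromal and endothelial markers lay at 141 to 210.1 CPM in Gata2 KO and 126 to 175 CPM in Gata2 f/f, most of it from Pecam1. The T and NK cell sum was set mostly by Nkg7, at 15.6, 12.3 and 2.90 CPM in libraries 1 to 3 labelled Gata2 KO, against 18.8, 21.6 and 7.77 CPM in Gata2 f/f libraries 1 to 3, while 4 of the 8 markers were higher in both libraries numbered 3 than in the other 4, with at most 1.30 CPM in a library.

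**Figure D5:**
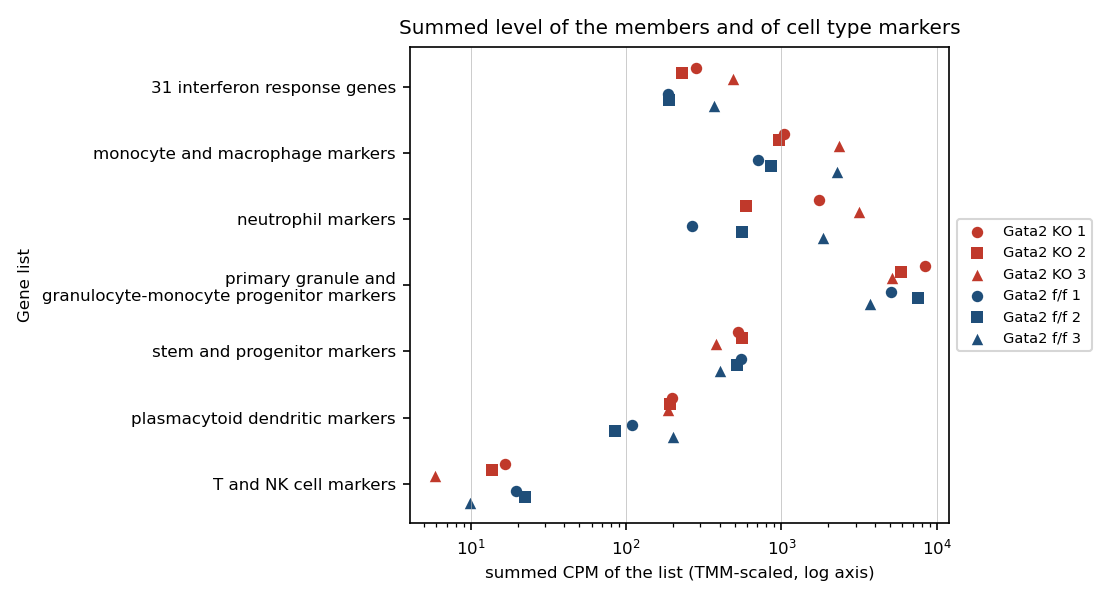
Summed CPM of the 31 interferon response genes and of 6 marker lists in every library on a log axis, with red for Gata2 KO (upper points), blue for Gata2 f/f (lower points), and circles, squares and triangles for numbers 1, 2 and 3. The triangles are at the right for interferon response, monocyte and macrophage, and neutrophil sums, although 3 of 10 neutrophil markers were higher in both libraries numbered 3. They are at the left for the stem and progenitor sum, made up mostly of Hoxa9 and Hoxa10, and for the T and NK cell sum, which Nkg7 dominates.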

How the data were processed

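Poly(A) RNA libraries (NEBNext Ultra II, paired 90-base reads, per the labels' protocols) are represented by a table of raw counts per gene that the authors deposited without normalization, 1 column per library. Software listed in the submitters' processing notes comprises HTSeq, kallisto and DESeq2, with the build mm10 and no roles or versions; the sources used here do not give the annotation or strand setting. Of 49585 identifiers, 49326 matched GENCODE M21 (GRCm38) without version. The list entries Mb21d1 and Mnda were matched through RefSeq synonyms, as Cgas and Ifi211. No column was left unused. No molecular identifiers are named in the labels, so floors cover counting error only.

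Genes were kept by filterByExpr (minimum count 10), which left 13744 genes, scaled by TMM and tested over all 6 libraries with edgeR's quasi-likelihood test (robust, no block), adjusted by Benjamini-Hochberg at 0.05. Log values used a prior count of 2. Same-numbered libraries correlated in their deviations from group means at 0.29, 0.55 and 0.65 for numbers 1, 2 and 3, which by the rule used pairs them. Unlike numbers reached 0.46 between KO 2 and f/f 1 and 0.10 between KO 1 and f/f 2. No libraries were duplicates (chi-square per degree of freedom of at least 27.3). The method was tested on simulated data.

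The members and lists, and the alternatives, were chosen with earlier results of these data known. Values are given for members called by any tool, the 8 of smallest p, 4 transcription factors and the 4 of highest mean CPM, for Ifnar1, Ifnar2 and Ifnb1, and for the 2 pathway genes of smallest p per list. Other members are described by their levels, and Oas3 also by its fold changes. A result for 1 pathway gene is not reported here. Alternatives were DESeq2's size factors, no filter, a mean CPM of at least 1, DESeq2, the block, and leaving out libraries. Leaving out 4 genes with ribosomal RNA reads, and DESeq2 with the block on fewer libraries, were added after the data were seen. Software was R 4.3.3, edgeR 4.0.16, limma 3.58.1 and DESeq2 1.42.0.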

Additional observations from a re-analysis of the deposited data

How the results depend on the processing

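edgeR called 0 members between genotypes under every alternative run, and DESeq2 with the block called 1 of 25 members, 3 pathway genes and 222 genes in all. DESeq2 without the block called 7 genes, and edgeR with the replicate block called 0, or 54 without the library labelled Gata2 KO 2. DESeq2 with the block called 67 genes without that library, and 382 genes, 7 of them pathway genes, without both libraries numbered 3. The block changed no call of edgeR on all 6 libraries. The median log2 fold change of the members ran from -0.13 to 0.92 as single libraries were left out, and was 0.35 to 0.44 under the other scalings, filters and tools on 6 libraries. Calls between numbers ran from 3 of 25 members (5.39% of all genes) without Gata2 KO 3 to 12 of 25 (24.6% of all genes) without Gata2 f/f 3, and 12 of 27 without Gata2 f/f 1 (11.6%) or 2 (11.2%). They were 17 of 31 with no filter (9.76% of all genes), where more genes are tested. With single libraries left out, the log2 fold change ran from -0.15 to 2.43 for Ifi27l2a, -0.13 to 2.63 for Xaf1, -0.0676 to 0.68 for Ifi35, -0.10 to 3.06 for Ifi204, -0.31 to 2.07 for Irf7, -0.20 to 1.11 for Irf9, -0.0262 to 0.21 for Stat2, -0.10 to 0.72 for Oas1a and -0.39 to 2.73 for Oas1g. Gata2 was called only without the library labelled Gata2 KO 2 and with the block, at -2.36 (edgeR) and -2.37 (DESeq2), where the choice of libraries fixes its direction. The cause of these changes was not tested. Depth limits the 6 untested members, with at most 42 counts in a library.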
